A study of Saccharomyces cerevisiae with 3 samples.

Results

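The plasma membrane amino acid permeases of Saccharomyces cerevisiae, the baker's yeast, are described here on each DNA microarray of a caspofungin treatment. The 10 members were taken by name out of 6207 open reading frames (ORFs), by a rule with no threshold on a measured value, from a list drawn up with earlier results of these data known. They are GAP1 (YKR039W), AGP1 (YCL025C), GNP1 (YDR508C), BAP2 (YBR068C), BAP3 (YDR046C), TAT1 (YBR069C), TAT2 (YOL020W), HIP1 (YGR191W), LYP1 (YNL268W) and CAN1 (YEL063C). The permeases with values were positive on the deposited log2 scale with a single exception, AGP1 on array 2, and the highest were HIP1, for histidine uptake, and GNP1, for glutamine uptake. Of all ORFs on arrays 1 and 2, 20.5% were positive on both, and of those within the permeases' range of coding length 54.6% were. None of the 8 permeases that could be tested passed the test across all ORFs, where 0.887% of the 2818 ORFs tested did. With each array centred on its median, 2 of the 8 passed, where 134 of the 2818 ORFs did.

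Both groups were the strain MID2extWSC1cyt in the BY4741 background, grown in YEPD at 24 °C. One part of each culture received caspofungin at 15 ng/ml for 2 h and the other part stayed untreated. By its name the strain carries a chimera of the extracellular part of the wall sensor Mid2 and the cytoplasmic part of the sensor Wsc1, so treated and untreated cells share it, and no strain without it was analysed here. Each array held RNA of both groups, with the caspofungin RNA in the dye Cy3 on array 1 and in Cy5 on arrays 2 and 4.

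Amino acid permeases are integral membrane proteins that carry amino acids into the cell together with protons, driven by the gradient that the pump Pma1 builds. In rich medium an extracellular amino acid sensor, made of Ssy1, Ptr3 and Ssy5 (the SPS sensor), activates the transcription factors Stp1 and Stp2, whose known targets include AGP1, GNP1, BAP2, BAP3 and TAT1. GAP1 is under nitrogen catabolite repression, which keeps it low on good nitrogen sources. BY4741 lacks working HIS3, LEU2, MET15 and URA3 genes, so its cells take up histidine, leucine and methionine from the medium.

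A deposited value is the log2 ratio of the 2 dyes of an array, so it compares treated with untreated RNA and says nothing about how abundant an mRNA is. No source used here states the direction of the ratio or the centring. Signs are printed as deposited: if every array holds caspofungin over untreated, a positive value is higher with caspofungin. If the values are instead Cy5 over Cy3 on every array, the caspofungin term is array 2 minus array 1, divided by 2, and the signs of most permeases turn (values below). All measured ORFs together had a median of −0.24 on array 1, of −0.14 on array 2 and of −0.93 on array 4, so 0 is not the middle of an array. Array 1 had values for 3748 ORFs, array 2 for 2833 and array 4 for 855. The labels do not say whether arrays 1 and 2 come from the same culture, so the spread between them may be technical only. BY4741 is haploid and of the a mating type. On arrays 1 and 2, 4 of 7 a-specific genes had a value. They were STE2 (0.10 and 0.15), BAR1 (0.69 and 0.14), STE6 (−1.23 and 0.13) and MFA2 (−0.33 and −0.67). STE2 also had −0.73 on array 4. Of the alpha-specific genes 0 of 4 had a value on any array, and of the meiosis and sporulation genes 0 of 10. Since empty cells do not show absence, these counts do not check the cell type.

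The permeases were measured on arrays 1 and 2 and not on array 4. Array 1 had a value for 9 of the 10, all but TAT2, where 60.4% of all ORFs had one. Array 2 had a value for 8 of the 10, all but TAT1 and TAT2, against 45.6% of all ORFs. Array 4 had a value for 0 of the 10, against 13.8% of all ORFs and 7.67% of the 339 ORFs within the permeases' own range of coding length, 1773 to 1992 bases. TAT2, the high-affinity tryptophan and tyrosine permease, was not measured at all and is not described further. No source used here states the filter that emptied a cell, so an empty cell does not say that an mRNA was absent.

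**Figure D1:**
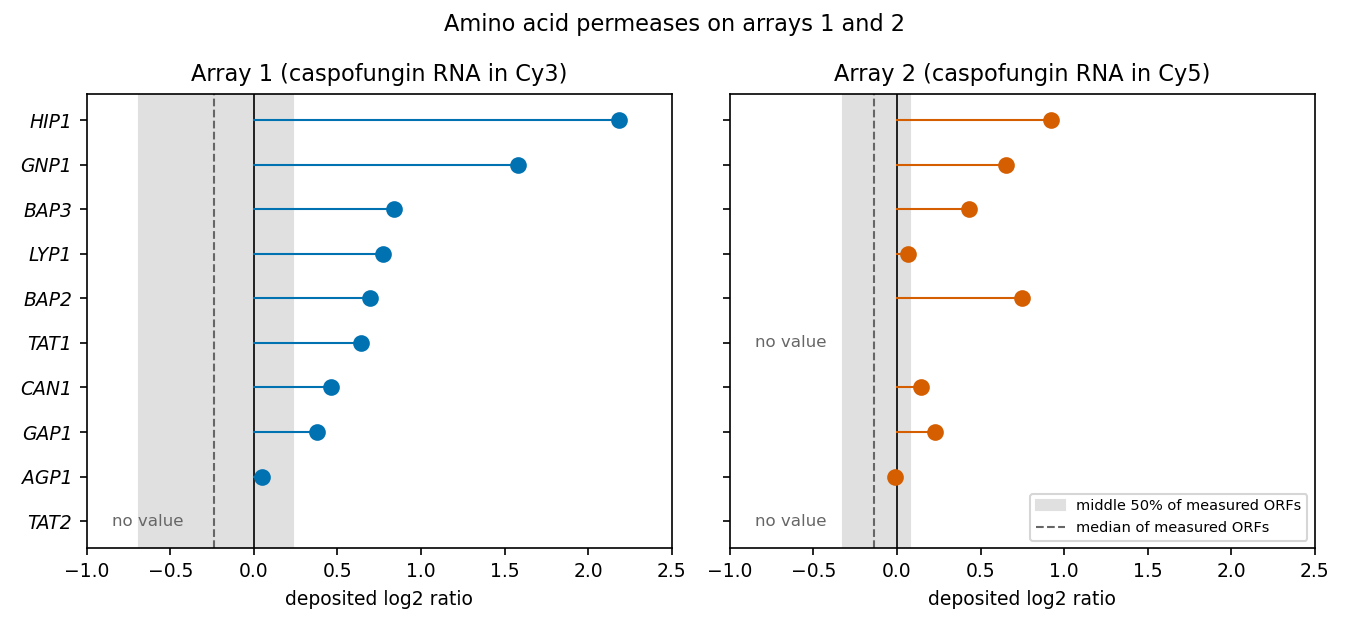
Deposited log2 ratio (horizontal axis) of each permease (vertical axis) on array 1 and array 2, 1 point per array; the grey band holds the middle 50% of the ORFs measured on that array and the dashed line is their median. HIP1 and GNP1 lead on array 1, HIP1 and BAP2 on array 2, and AGP1 lies near 0 on both; TAT2 has no value and TAT1 none on array 2.

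Among the permeases for histidine and basic amino acids, HIP1 was the highest of all members. HIP1, the high-affinity histidine permease, had a log2 ratio of 2.19 on array 1 and 0.92 on array 2. It ranked 19th from the top of 3748 ORFs on array 1 and 72nd of 2833 on array 2, and no other permease was higher on either array. Its mean over both arrays was 1.55 ± 0.34 (SE, 2 arrays), or 2.93-fold, and its limma adjusted p was 0.0795. Each SE given with a mean is limma's moderated SE, which pools the ORF's own spread with that of all ORFs tested. It was nowhere under 0.26, so it is not the spread of the 2 arrays alone.

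LYP1, the lysine permease, had 0.78 on array 1 and 0.07 on array 2. It was thus at percentile 91.5 of array 1 and at percentile 73.6 of array 2, the widest gap in rank among the permeases. Its mean was 0.42 ± 0.29 (SE, 2 arrays; limma adjusted p = 0.484). CAN1, the arginine permease through which yeast takes up the toxic analogue canavanine, had 0.46 and 0.14 on arrays 1 and 2, at percentiles 83.4 and 79.7. Both values were positive and moderate, and the mean was 0.30 ± 0.27 (SE, 2 arrays; limma adjusted p = 0.572).

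Of the 3 permeases with a broad range of substrates, GNP1 stood high and AGP1 stood near 0. GNP1, the high-affinity glutamine permease, which also carries other neutral amino acids, had 1.58 on array 1 and 0.65 on array 2. It was the second highest permease on array 1 and the third on array 2, with a mean of 1.12 ± 0.30 (SE, 2 arrays), or 2.17-fold (limma adjusted p = 0.178). AGP1, a low-affinity permease of wide specificity, had 0.048 and −0.013. These were the lowest permease values on both arrays, yet they lay at percentiles 66.0 and 65.2 of all ORFs, since most ORFs were negative. The mean of AGP1 was 0.018 ± 0.26 (SE, 2 arrays; limma adjusted p = 0.978). GAP1, the general amino acid permease, had 0.38 and 0.23, at percentiles 80.4 and 84.8. Its mean of 0.30 ± 0.26 (SE, 2 arrays; limma adjusted p = 0.571) was nearly that of CAN1.

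The permeases for branched-chain and aromatic amino acids lay in the upper part of both arrays. BAP2, which takes up leucine, isoleucine and valine, had 0.69 on array 1 and 0.75 on array 2. It was the only permease whose value was higher on array 2 than on array 1, and its percentile was 89.5 on array 1 and 96.3 on array 2. BAP3, a permease of overlapping specificity, had 0.84 and 0.43, at percentiles 92.5 and 91.7. The means were 0.72 ± 0.26 for BAP2 (SE, 2 arrays; limma adjusted p = 0.312) and 0.63 ± 0.27 for BAP3 (SE, 2 arrays; limma adjusted p = 0.364). TAT1, which carries valine, leucine, isoleucine and tyrosine, had a value on array 1 only, 0.64, at percentile 88.6. The gene of TAT1 lies next to that of BAP2 on chromosome II, and on array 1 the values of these neighbours differed by 0.049.

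The 8 permeases on both arrays were fitted with all 2818 ORFs measured there. None of the 8 was called at an adjusted p under 0.05, where 0.887% of the ORFs tested, 25 of them and all positive, were called. At an unadjusted p under 0.05 there were 4 of 8, HIP1, GNP1, BAP2 and BAP3, and 13.5% of all ORFs. Of the 8, 7 were positive on both arrays and AGP1 had opposite signs, while 20.5% of all ORFs were positive on both and 47.1% were negative on both. The mean was positive for 8 of 8, and for 33.2% of all ORFs. A mean of 1 or more with both arrays positive was found for HIP1 and GNP1, and for 3.05% of all ORFs. The median of the 8 means was 0.53, and that of all ORFs was −0.18. The call depended on the scaling: with each array centred on its median, HIP1 (limma adjusted p = 1.37e-05) and GNP1 (limma adjusted p = 0.00306) passed, and the count over all ORFs became 134, with 126 positive and 8 negative. After centring each permease had the same SE, 0.33, so these p-values do not use its own spread between the arrays. With the sign of array 1 turned, the median of the 8 was −0.18 and that of all ORFs −0.0041. HIP1 then had −0.63, GNP1 −0.46 and BAP2 0.027, and none was called, where 1 of the 2818 ORFs was. Each permease again had the same SE, here 0.50, whatever its own spread. In that reading 0 of the 8 were positive on both arrays, against 12.9% of all ORFs, and 1 of the 8 had a positive mean, against 49.3%. The 130 ORFs of the permeases' length range had medians of 0.47 on array 1 and 0.068 on array 2 as deposited. Turning array 1 thus makes its median negative at that length too, and the shares among those ORFs were not counted.

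**Figure D2:**
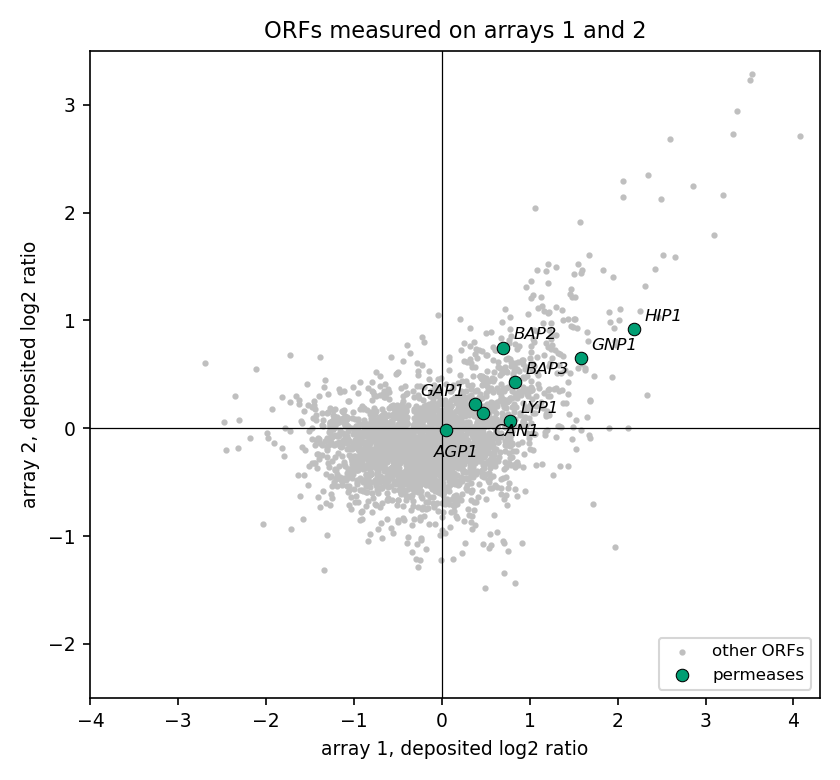
Deposited log2 ratio on array 1 (horizontal axis) against array 2 (vertical axis) for the 2818 ORFs measured on both, with the 8 permeases in green; 1 ORF lies outside the axes. The permeases run from AGP1 near the origin to HIP1 at 2.19 and 0.92, and 7 of 8 lie where both arrays are positive.

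In order of their means the permeases ran HIP1, GNP1, BAP2, BAP3, LYP1, CAN1, GAP1 and AGP1. Each of the first 6 steps in this order was smaller than the larger of the between-array SDs of the neighbours, for example 0.44 between HIP1 and GNP1 against an SD of 0.90 for HIP1. The step of 0.28 from GAP1 to AGP1 was larger than their SDs, of which the larger was 0.11, but close to the SE of the GAP1 mean, 0.26. These SDs are not those of a difference paired by array: HIP1 was above GNP1 on both arrays, as GAP1 was above AGP1. The order was partly shared between the arrays, with Spearman's rho of 0.714 and Pearson's r of 0.814 over the 8 permeases, which share the arrays and the range of coding length. Over all 2818 ORFs rho was 0.297 and r was 0.436.

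Array 1 gave the larger value for 7 of the 8 permeases, against 50.7% of all ORFs, and its values were spread more widely. Among the 130 ORFs of the permeases' length range the median was also higher on array 1, at 0.47 against 0.068 on array 2. The scaled median absolute deviation (MAD) of all measured ORFs was 0.688 on array 1 and 0.297 on array 2. Counted in MADs from the median of its array, HIP1 stood at 3.53 on array 1 and 3.55 on array 2. GNP1 stood at 2.64 and 2.65, AGP1 at 0.416 and 0.418, and CAN1 at 1.02 and 0.94. On this scale these 4 permeases had nearly the same place on both arrays. BAP2 did not, with 1.35 on array 1 and 2.97 on array 2, and LYP1 differed the other way, with 1.47 and 0.68. BAP3 had 1.56 and 1.91, and GAP1 had 0.89 and 1.22.

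The deposited values moved with coding length, and the permeases have similar lengths near the top of that trend. Among ORFs measured on arrays 1 and 2, those under 600 bases had a median of −0.74 on array 1 and −0.23 on array 2. The 130 ORFs of 1773 to 1992 bases had medians of 0.47 and 0.068, and those of 3000 bases or more had −0.52 and −0.016. Within these 130 ORFs, which include the 8 permeases, 54.6% were positive on both arrays and 9.23% had a mean of 1 or more with both positive. CAN1 and GAP1 ranked 64th and 65th of the 130 by their mean, LYP1 49th and AGP1 93rd, that is between percentiles 28.5 and 62.3 of ORFs of their length. HIP1 ranked 3rd, GNP1 11th, BAP2 22nd and BAP3 28th. HIP1 was first of the 130 on array 1 and ninth on array 2.

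With the length trend removed from each array, an alternative chosen after the values were seen, HIP1 had 1.81 and 0.86 on arrays 1 and 2, and GNP1 had 1.23 and 0.56. BAP2 kept 0.32 and 0.68, and BAP3 had 0.46 and 0.37. The values of GAP1 became −0.00041 and 0.16, those of CAN1 0.091 and 0.089, and those of LYP1 0.40 and −0.0034. AGP1 became negative on both arrays, at −0.33 and −0.096. Positive on both arrays were then 5 of 8, HIP1, GNP1, BAP2, BAP3 and CAN1, and 28.8% of the ORFs. The median of the 8 means was then 0.30, against −0.0056 over all 2716 ORFs with a length and 0.072 over those of the permeases' length range. The trend was not fully removed at that length, where the median left was 0.098 on array 1, just above the 0.091 of CAN1, and −0.0071 on array 2. None of the 8 was called (limma adjusted p = 0.118 for HIP1), where 1.03% of the ORFs were. The part of the trend in the permease values was not tested in any other way.

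**Figure D3:**
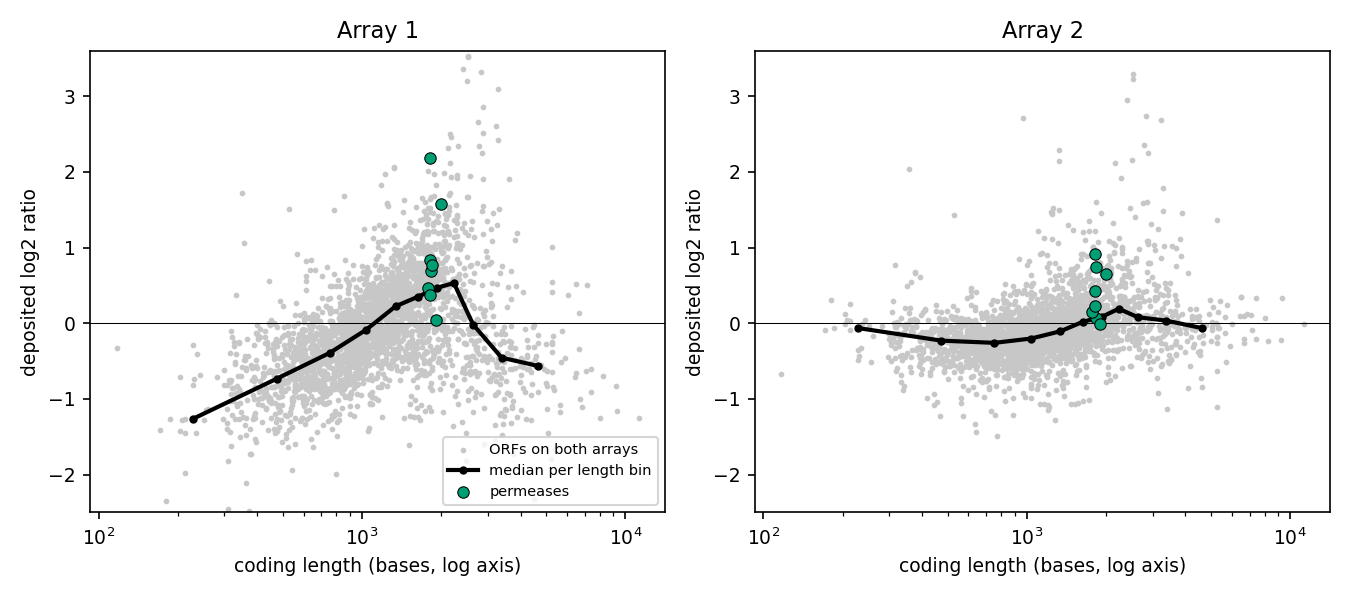
Deposited log2 ratio (vertical axis) against coding length in bases (horizontal axis, log scale) for ORFs measured on arrays 1 and 2; the black line joins the medians of length bins with at least 20 ORFs, and green points are the 8 permeases (2 ORFs of array 1 and 1 of array 2 lie outside the axes). On array 1 the medians climb to the permeases' length and drop for longer ORFs; HIP1 and GNP1 lie above the line on both arrays and AGP1 below it.

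Closely related permeases did not all have like values. GNP1 and AGP1, paralogues from the ancient genome duplication, differed by 1.53 on array 1 and 0.66 on array 2, with GNP1 higher on each. BAP2 and BAP3, also paralogues from that duplication, differed by less and in opposite directions, with BAP2 lower by 0.14 on array 1 and higher by 0.32 on array 2. CAN1 has the paralogue ALP1 (YNL270C), a basic amino acid permease that is not among the members, and LYP1 lies close to ALP1 on chromosome XIV. ALP1 was negative, with −0.68 and −1.02, so CAN1 was higher by 1.14 on array 1 and 1.16 on array 2, and LYP1 by 1.46 and 1.08. These differences were not tested, and spots of related sequence can cross-hybridize, to an extent that no source used here states.

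For each permease the ORFs nearest in value were found by Euclidean distance over arrays 1 and 2 among the 2818 ORFs. HIP1 had the most distant neighbours: TIF4631, a translation initiation factor gene (distance 0.177), ADE16, for purine synthesis (0.193), and SDA1, for ribosome biogenesis (0.228). The nearest to GNP1 were PUT2, for proline breakdown (0.056), YPL044C (0.1001) and the alanyl-tRNA synthetase gene ALA1 (0.102). BAP2 was nearest to SHM1, the mitochondrial serine hydroxymethyltransferase gene (0.044), FAP1 (0.079) and the mannosyltransferase gene PMT4 (0.084). BAP3 lay by YNL190W (0.011), YNL134C (0.018) and PIN4 (0.038). Near LYP1 were ELP3 (0.025), EXG2 (0.027) and APE3 (0.040), and near CAN1 were PDA1 (0.014), GUA1 (0.040) and CCT4 (0.041). GAP1 lay by YDR292C (0.016), ARP3 (0.030) and ADH3 (0.031), and AGP1 by SHB17 (0.019), CHS7 (0.024) and STB3 (0.028). Small distances are common where ORFs are dense, so the nearness of the lower permeases singles out little.

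The genes listed as other amino acid transporters of the plasma membrane were measured less often and went both ways. Of 13, 8 had a value on array 1 and 4 on both arrays 1 and 2, with 2 positive on both, 1 negative on both, 0 called and a median of 0.095. Over all ORFs 20.5% were positive on both, 47.1% negative on both and 0.887% called. PTR2, the transporter of di- and tripeptides and a known target of the SPS sensor, had 1.52, 1.22 and −0.81 on arrays 1, 2 and 4. It was high on arrays 1 and 2 and slightly above the median of array 4, with a 2-array mean of 1.37 ± 0.27 (SE; limma adjusted p = 0.0572). ALP1 had a mean of −0.85 ± 0.27 (SE, 2 arrays; limma adjusted p = 0.252), and MUP1, the high-affinity methionine permease, had 0.57 and 0.18. On array 1 alone, the carriers TPO5, MUP3 and UGA4 had −2.81, −1.70 and −0.97, and the acidic amino acid permease DIP5 had 0.25. These data do not show that each carrier on the list moves amino acids at the plasma membrane.

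Of the 14 genes of amino acid sensing by the SPS sensor, 7 were on both arrays, 4 positive on both and 0 negative on both, with 0 called and a median of 0.21. The shares over all ORFs were 20.5% positive on both, 47.1% negative on both and 0.887% called. The corepressor gene TUP1 had the largest mean, 1.21 ± 0.28 (SE, 2 arrays; limma adjusted p = 0.0888), from 1.49 and 0.94. YCK1, a membrane-bound casein kinase, had 0.42 and 0.26, and ASI2, of the inner nuclear membrane complex that removes unprocessed Stp1 and Stp2, had 0.021 and −0.60. The factor gene STP1 itself had 0.41 and 0.16, while STP2 had −0.75 on array 1 only and the sensor gene SSY1 had −2.01 on array 4 only. STP1, STP2 and SSY1 were chosen after their values were seen.

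Permease folding, sorting and ubiquitination had 7 of 22 genes on both arrays, 2 positive and 4 negative on both. Of these 7, 0 were called, and the median was −0.22. Over all ORFs 20.5% were positive on both, 47.1% were negative on both and 0.887% were called. RSP5, the ubiquitin ligase that marks permeases for endocytosis, had 0.74 and 0.64. Its arrestin-like adaptor ECM21 had 0.67, 0.26 and −3.29 on arrays 1, 2 and 4, and LST4, needed for delivery of Gap1 to the surface, had −0.27 and −0.57. Nitrogen regulators and nitrogen-repressed genes had 12 of 27 on both arrays, 6 positive and 1 negative on both, with a median of 0.25. The only gene of these lists called in the fit reported was in this one: PRB1, the vacuolar protease B gene, had 1.83 and 1.46, a mean of 1.65 ± 0.27 (SE, 2 arrays; limma adjusted p = 0.0273). PUT2 had 1.60 and 0.60, and the ornithine aminotransferase gene CAR2 had 0.37, 0.80 and −0.37 on arrays 1, 2 and 4.

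**Figure D4:**
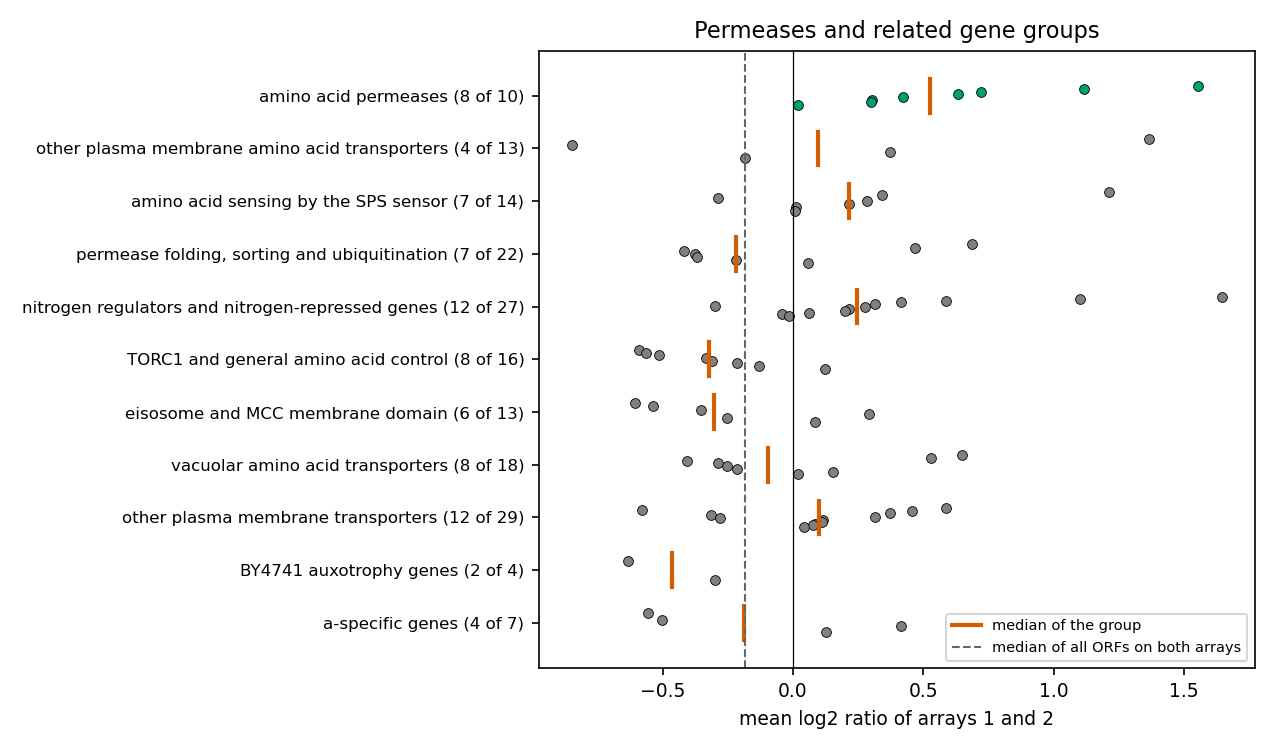
Mean log2 ratio of arrays 1 and 2 (horizontal axis) for genes of each group measured on both, with the number measured out of the number on the array design; orange bars are group medians and the dashed line is the median of all 2818 ORFs, −0.18. The permeases have a median of 0.53, and their lowest member, AGP1, lies right of the dashed line.

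The remaining groups held no called gene in that fit, where 0.887% of all ORFs were called and 20.5% were positive on both arrays. TORC1 and general amino acid control had 8 of 16 genes on both arrays, 1 positive and 5 negative on both (47.1% negative over all ORFs), with a median of −0.32. Its lowest were GCN1 (−0.59) and TOR2 (−0.56), both very long ORFs, which had −0.022 and −0.022 with the length trend removed. The eisosome and its membrane domain, where Can1 gathers at the cell surface, had 6 of 13 genes on both arrays, 1 positive and 4 negative on both (again against 47.1%), with a median of −0.30 and with EIS1 at −0.61 and PUN1 at −0.54. Vacuolar amino acid transporters had 8 of 18, 3 positive and 1 negative on both (median −0.097), with VBA1 at 0.65 and AVT3 at 0.53. Other plasma membrane transporters had 12 of 29, 4 positive and 2 negative on both (median 0.099), with the phosphate transporter PHO84 at 0.59 and the lactate transporter JEN1 at −0.58. With the length trend removed these 4 medians were −0.022, −0.015, −0.19 and −0.0060. Of the 4 genes that BY4741 lacks in working form, HIS3 had −1.20 and −0.069 and LEU2 had −0.75 and 0.16 on arrays 1 and 2, while MET15 (listed as MET17) and URA3 had no value. What the spots of HIS3 and LEU2 cover, and whether a marker was used to build the strain, is stated in no source used here.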

How the data were processed

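The deposited table holds 1 log2 value per ORF and array, made by the authors from 2-colour arrays. The image analysis, any background correction, the scaling and the reason for empty cells are stated in no source used here. The base of the logarithm was read from the numbers, since on each array 100% of the ratios, taken as powers of 2, fell on steps of 0.0001 (tolerance 0.01 step). Names and coding lengths came from the RefSeq gene table of assembly R64, which matched 5654 ORFs by locus tag and 57 by synonym, with 496 unmatched. It gives no sequences, so none are printed.

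Array 4 holds none of the permeases. They were therefore tested with limma 3.58.1 (R 4.3.3) on the means of arrays 1 and 2, over 2818 ORFs with Benjamini-Hochberg adjustment. These means are balanced for dye only if both arrays hold caspofungin over untreated. If both hold Cy5 over Cy3, the mean is the dye term, and turning array 1 gives the caspofungin term. The fit leaves 1 residual degree of freedom per ORF, with 7.81 prior degrees of freedom. It was tested on simulated data with the same SD for every ORF and both arrays and no length trend. That test does not cover the unequal spreads and the length trend of the deposited values. The number of arrays limits the precision. A fit of all 3 arrays with a dye term, over 723 ORFs, holds no permease. Centring, scaling by the MAD, quantile normalization, robust moderation, a threshold of 0.10, turning array 1, other filters and a loess length trend (span 0.3) were tried. The permeases and gene lists were chosen with earlier results of these data known. All permeases are named. The 3 nearest ORFs by distance, and up to 3 genes a list by size of the 2-array mean, are named too.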

Additional observations from a re-analysis of the deposited data

How the results depend on the processing

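Arrays 1 and 2 alone carry the permease values, so each permease has 1 pair of arrays, with no signal over background to weigh it by. The moderated SEs rest mostly on the spread of all ORFs. Between-array SDs of the 8 permeases ran from 0.038 to 0.90, but their SEs only from 0.26 to 0.34. After centring the SE was 0.33 for each of the 8, whatever its own spread. Centring moved the median of all ORFs from −0.18 to 0.0049. Each ratio already pairs treated with untreated RNA on its array, so no further block was fitted. The 8 permeases called numbered 0 in the fit reported, 2 after centring, 3 after scaling by the MAD (HIP1, GNP1 and BAP2, the last with a limma adjusted p of 0.0245), 2 after quantile normalization and 1 (HIP1) at an adjusted p under 0.10. They numbered 0 with array 1 turned, robust moderation or the length trend removed. The dye-term model over 2840 ORFs also called 0 of the 8, but it cannot test them. With values on arrays 1 and 2 only, a permease has no residual spread in that model. The SE there, 0.84 for each of the 8, came from other ORFs. The 25 ORFs called over both arrays became 134 after centring, 166 after scaling (160 positive and 6 negative), 146 after quantile normalization (111 positive and 35 negative), 70 at an adjusted p under 0.10 (65 positive and 5 negative), 11 among ORFs on all 3 arrays, 1 with array 1 turned and 0 in the dye-term model. The cause was not tested.

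With array 1 turned, the median of the 8 permeases was −0.18. The single values were then −0.075 for GAP1, −0.030 for AGP1, −0.20 for BAP3, −0.46 for GNP1, −0.35 for LYP1, −0.16 for CAN1 and −0.63 for HIP1. Other named genes also changed sign: PTR2 had −0.15, MUP1 −0.20, TUP1 −0.28, YCK1 −0.080, RSP5 −0.048, ECM21 −0.20, PRB1 −0.18, PUT2 −0.50, VBA1 −0.30, PHO84 −0.44, GCN1 0.65, TOR2 0.35, EIS1 0.41, PUN1 0.33, JEN1 0.30, HIS3 0.56 and LEU2 0.46. AGP1 was −0.21 with the length trend removed. LEU2 was 0.12 after scaling by the MAD, and ECM21 was −0.42 in the dye-term model, which takes in its value on array 4. On single arrays, the median of the 8 permeases ran from 0.33 to 0.73, AGP1 from −0.013 to 0.048, ASI2 from −0.60 to 0.021, GCN1 from −1.25 to 0.063 and LEU2 from −0.75 to 0.16. The median of the 9 permeases on array 1, 0.69, became 1.35 in MAD units and 0.32 with the length trend removed, and that of the 8 on array 2, 0.33, became 1.56 in MAD units. PRB1, which also has no value on array 4, was no longer called in the dye-term model (limma adjusted p = 0.999). Its SE there was 0.84, against 0.27 in the fit reported, and came from other ORFs. Some genes of the related lists, not called in the fit reported, were called elsewhere by limma. After centring these were PTR2 (adjusted p = 0.000157), TUP1 (adjusted p = 0.00108) and PUT2 (adjusted p = 0.0035). The same 3 were called after scaling by the MAD (0.000202, 0.000775 and 0.00433), with RSP5 (0.0355) and CAR2 (0.0477), and after quantile normalization (0.000576, 0.00234 and 0.0089), with ALP1 (−0.92, adjusted p = 0.0363). PTR2 and TUP1 passed at 0.10, and PTR2 among the ORFs on all 3 arrays (adjusted p = 0.0484).

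The fit of all 3 arrays called 2 of 723 ORFs. It called 0 without the dye term, with arrays 1 and 2 averaged, after centring, scaling or quantile normalization, with array 1 turned or with ORFs on array 1 and at least 1 other. It called 12 with arrays 1 and 4 averaged, and from 0 to 25 when 1 array was dropped, the 25 being the fit without array 4. At an unadjusted p under 0.05 these counts of 0 ranged from 4 to 228.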

Other observations

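Array 4, which has no value for any of the permeases, had values for other transporters. The sulfate permease gene SUL2 had −3.47, the ammonium exporter gene ATO3 −3.75, the pantothenate transporter gene FEN2 −2.16 and JEN1 −1.88. The hexose transporter genes HXT1, HXT2 and HXT3 had −0.72, −0.57 and −0.85, and the purine-cytosine permease gene FCY2 had −0.78. PHO84 had 0.38 and the copper transporter gene CTR1 −0.11. The median of all ORFs on that array was −0.93. ATO3 was also measured on arrays 1 and 2, with −0.76 and 0.13. These genes were chosen after their values were seen, as all those of the list of other plasma membrane transporters with a value on array 4.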
